A study of Mus musculus with 12 samples.

Results

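The genes described here encode the protein factors that carry ribosomes through initiation, elongation and termination of translation, with the poly(A)-binding proteins that join them. They were taken by symbol from the table of the comparison described below: 46 genes of 24221 rows, all found. In initiation, eIF2 brings the initiator tRNA to the small ribosomal subunit, eIF2B recharges eIF2 with GTP, eIF3 holds the subunit ready and eIF4F recruits the capped mRNA. In elongation, eEF1A delivers aminoacyl-tRNAs and eEF2 moves the ribosome along. Release factors then free the finished chain at the stop codon. Many of these factors are abundant in dividing cells, where the translation machinery takes a large part of the cell's mRNA.

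The samples were mouse acute myeloid leukaemia cells of the C57BL/6 strain that carry the MLL-AF9 fusion. Cells with loxP-flanked Riok2 (Riok2fl/fl) were taken 72 h after hydroxytamoxifen (OHT) or its vehicle ethanol (EtOH), with 3 samples in each group. RIOK2 is an atypical kinase needed for late maturation of the small ribosomal subunit. Both groups carry the fusion and the floxed alleles, and the sources used here do not name the Cre recombinase. The groups thus differ in OHT as well as in Riok2, and the effects of both cannot be told apart. The groups of 3 samples with DMSO or 1 µM RIOK2 inhibitor are not analysed here.

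Each gene had 1 base mean, 1 log2 fold change and 1 standard error in the authors' deposited table, and no value per sample. Values after ± are standard errors (SE) on the log2 scale throughout. The fold is read as OHT over EtOH because Riok2, the targeted gene, had a log2 fold change of -3.60 ± 0.20 (adjusted p = 7.8e-69) per the authors' deposited table. Of the 13814 genes tested there, 48.9% passed an adjusted p of 0.05, the threshold used throughout: 23.4% were lower and 25.5% higher in OHT. The samples were bulk cultures, so fewer cells of a type and less RNA per cell cannot be told apart. All 15 markers of mature neutrophils and monocytes in a fixed list were higher in the authors' deposited table, with a summed level of 194987 normalised reads in EtOH and 795083 in OHT, and their part in the results below was not tested. Of 10 genes of myeloid identity, 6 were higher, 2 lower and 2 did not pass. The 2 that fell were the progenitor granule genes Mpo, at -2.37 ± 0.23 (adjusted p = 6.4e-24), and Elane, at -1.60 ± 0.17 (adjusted p = 1.1e-18), per the authors' deposited table. The 2 that did not pass were Kit, at 0.31 ± 0.26 (adjusted p = 0.333), and Cebpa, at -0.22 ± 0.11 (adjusted p = 0.0987), per the authors' deposited table. Among markers of other cells, Cd3e, Ms4a1 and Hbb-bt were listed at 0 in the authors' deposited table, and 1 of the 8 tested, Col1a1, was higher. Some were abundant: the mast cell and basophil genes Cpa3 and Mcpt8 had base means of 13267 and 3144, Pecam1, of endothelium and platelets, 1579, and the megakaryocyte gene Itga2b 1053 in the authors' deposited table. Cpa3 (0.64 ± 0.62), Pecam1 (0.24 ± 0.57) and Itga2b (1.19 ± 0.74) did not pass there, and Mcpt8 had no adjusted p. Whether these reads came from other cells or from the leukaemia cells was not tested, nor was their part in the results.

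Most translation factor mRNAs were lower in OHT. Of the 46 genes, 45 were tested in the authors' deposited table, 39 fell, 1 rose and 5 did not pass the threshold. The share that fell was 86.7%, beside 23.4% of all tested genes and 31.7% of those whose base mean was 1000 or more. The median log2 fold change was -0.89 over the 45 genes, equal to 53.9% of the EtOH level, and 0.050 over all tested genes. In 17 of the 45 the level in OHT was below 50% of that in EtOH. The summed level of the 45 genes, computed from the deposited base means and folds, was 659085 normalised reads in EtOH and 353504 in OHT. As a share of all normalised reads that is 3.33% in EtOH and 1.70% in OHT. Their median SE was 0.15 on the log2 scale, as for tested genes whose base mean was 1000 or more (0.15).

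**Figure D1:**
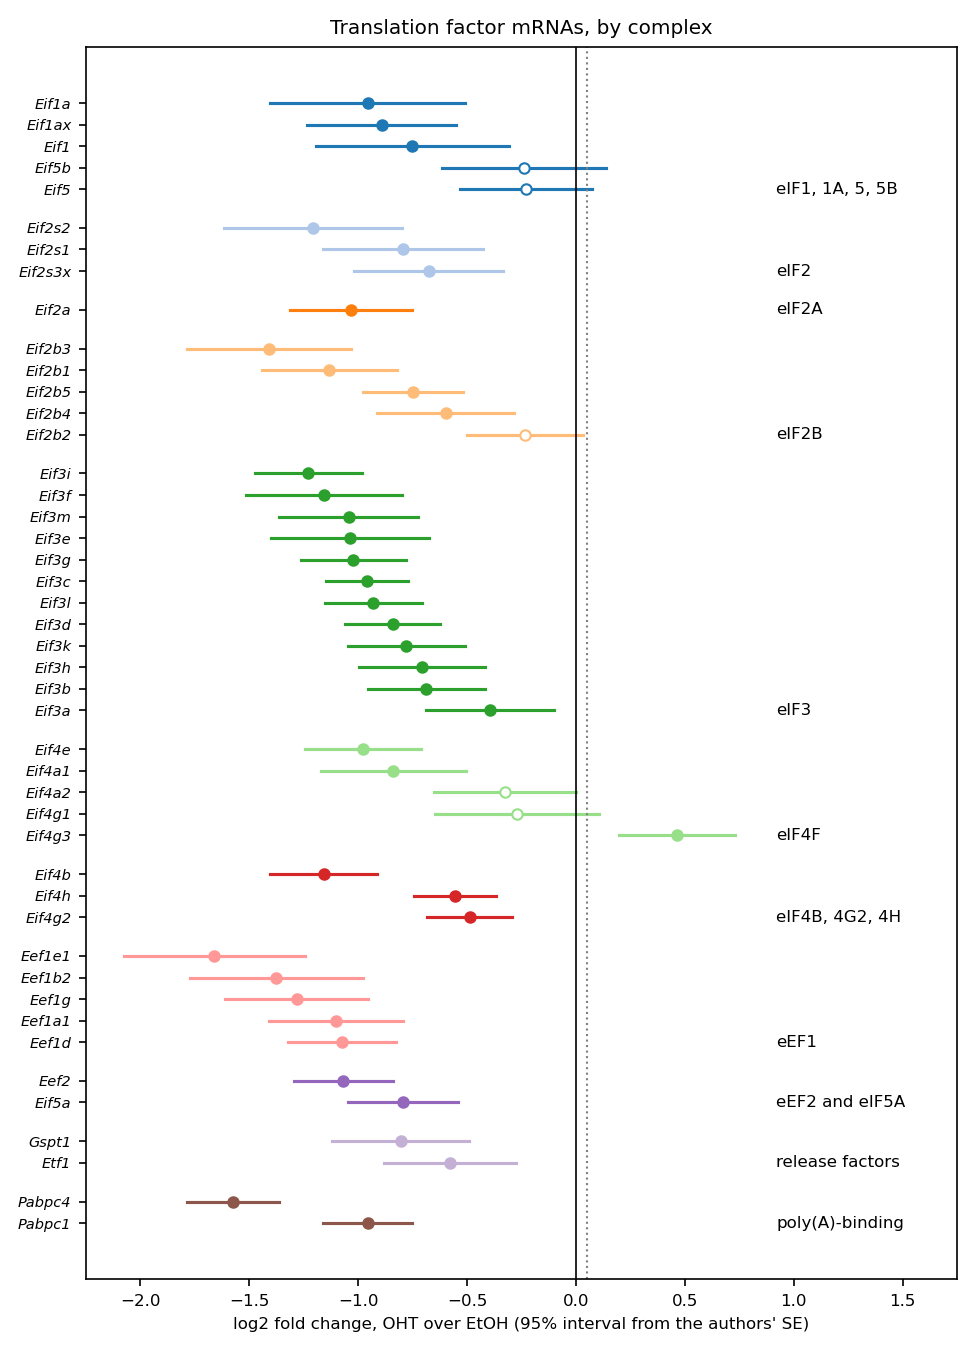
Log2 fold change (OHT over EtOH) of the 45 tested translation factor genes with 95% intervals from the authors' SE, ordered within each complex; filled points passed the adjusted p of 0.05, open points did not, and the dotted line is the median of all tested genes (0.050). Only Eif4g3 lies above 0, the 5 open points lie between -0.33 and -0.23, and the eEF1 genes lie at -1.07 or below.

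Of the 5 genes for factors that scan for and settle on the start codon, 3 fell and 2 did not pass. Eif1, whose product keeps the scanning complex open, had a level of 6885 normalised reads in EtOH and 4089 in OHT. It fell by 0.75 ± 0.23 (adjusted p = 0.0026) on the log2 scale in the authors' deposited table. The 2 genes for eIF1A, which works beside eIF1, had log2 fold changes of -0.96 ± 0.23 for Eif1a (adjusted p = 1.1e-04) and -0.89 ± 0.17 for Eif1ax (adjusted p = 1.7e-06) per the authors' deposited table. These 3 fell. The 2 GTPase-linked factors of the group did not pass. Eif5, the most abundant of them, encodes the GTPase activator of eIF2 and had -0.23 ± 0.15 (adjusted p = 0.215) per the authors' deposited table. Eif5b, which joins the large subunit, had -0.24 ± 0.19 (adjusted p = 0.316) there, with a 95% interval of -0.62 to 0.14. This interval overlaps those of Eif1, Eif1a and Eif1ax. The interval of Eif5 (-0.53 to 0.072) overlaps those of Eif1 and Eif1a but not that of Eif1ax (-1.23 to -0.55). The differences were not tested.

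All 3 subunits of eIF2 fell. Eif2s2, which encodes the beta subunit, had 6665 normalised reads in EtOH and 2889 in OHT, a log2 fold change of -1.21 ± 0.21 (adjusted p = 5.2e-08) per the authors' deposited table. Eif2s1, the gene of the alpha subunit that the stress kinases phosphorylate, had -0.79 ± 0.19 (adjusted p = 9.6e-05) per the authors' deposited table. Eif2s3x, the X-linked gene of the GTP-binding gamma subunit, had -0.68 ± 0.17 (adjusted p = 4.0e-04) there. The 95% intervals of the 3 subunits overlapped. Eif2a encodes a separate initiator tRNA-binding factor in spite of its name, and it fell by 1.03 ± 0.14 (adjusted p = 5.6e-12) per the authors' deposited table.

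The 5 subunits of eIF2B, the exchange factor of eIF2, spread over 1.18 log2 units. Of these, 4 fell. Eif2b3, which encodes the gamma subunit of the catalytic part, had 1188 normalised reads in EtOH and 447 in OHT. Its log2 fold change was -1.41 ± 0.19 (adjusted p = 3.5e-12) per the authors' deposited table, or 37.7% of the EtOH level. Eif2b5, the most abundant and the gene of the catalytic epsilon subunit, had -0.75 ± 0.12 (adjusted p = 1.8e-09) per the authors' deposited table. Eif2b2, of the regulatory part, had 1563 normalised reads in EtOH and 1330 in OHT and did not pass, at -0.23 ± 0.14 (adjusted p = 0.149) per the authors' deposited table. Its regulatory partners Eif2b1 (-1.13 ± 0.16) and Eif2b4 (-0.60 ± 0.16) fell in the same table of the authors' deposited values. The 95% intervals of Eif2b2 (-0.50 to 0.034) and Eif2b3 (-1.79 to -1.03) do not overlap; the difference itself was not tested.

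In eIF3, the largest initiation factor, 12 of 13 genes were tested and all 12 fell, with a median log2 fold change of -0.95 per the authors' deposited table. Eif3i, a WD-repeat subunit, had 5972 normalised reads in EtOH and 2546 in OHT. It fell by 1.23 ± 0.13 (adjusted p = 4.3e-21) on the log2 scale in the authors' deposited table. The smallest fall was that of Eif3a, the scaffold subunit and the most abundant of the complex in reads, with 14501 normalised reads in EtOH and 11022 in OHT. Its log2 fold change was -0.40 ± 0.15 (adjusted p = 0.0188) per the authors' deposited table, and it was the 1 factor called lower at 0.05 and not at 0.01. The intervals of Eif3a (-0.69 to -0.10) and Eif3i (-1.48 to -0.98) do not overlap, a difference that was not tested.

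The other 10 lay between them. The core subunits Eif3b (-0.69 ± 0.14) and Eif3c (-0.96 ± 0.096) bracketed Eif3d (-0.84 ± 0.11), which encodes a cap-binding subunit, in the authors' deposited table. Other subunits, each with a PCI or MPN domain, had log2 fold changes of -1.04 ± 0.18 (Eif3e), -1.16 ± 0.18 (Eif3f), -0.71 ± 0.15 (Eif3h), -0.78 ± 0.14 (Eif3k), -0.93 ± 0.11 (Eif3l) and -1.04 ± 0.16 (Eif3m) in the authors' deposited table. Eif3g, which binds Eif3i's product, had -1.02 ± 0.12 there. The remaining gene, Eif3j1, was listed with a base mean of 0 in the authors' deposited table, as was its paralog Eif3j2. Their coding sequences in GENCODE M21 are 100% identical over 99.7% of the length, and whether this has a part in the 0 was not tested.

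The eIF4F genes did not move as 1 group. This complex joins the cap-binding protein eIF4E, the helicase eIF4A and the scaffold eIF4G. Of its 5 genes, 2 fell, 1 rose and 2 did not pass, with a median log2 fold change of -0.33 per the authors' deposited table. Eif4e had 3299 normalised reads in EtOH and 1674 in OHT, a log2 fold change of -0.98 ± 0.14 (adjusted p = 9.9e-12) per the authors' deposited table. The helicase gene Eif4a1 was the most abundant, with 22196 normalised reads in EtOH and 12412 in OHT, and fell by 0.84 ± 0.17 (adjusted p = 4.3e-06) per the authors' deposited table. Its paralog Eif4a2 had -0.33 ± 0.17 (adjusted p = 0.0924) there and did not pass.

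Of the 2 scaffold genes of the complex, 1 rose and 1 did not pass. Eif4g1, the main scaffold, had 14105 normalised reads in EtOH and 11684 in OHT and did not pass, at -0.27 ± 0.19 (adjusted p = 0.244) per the authors' deposited table. Eif4g3, which encodes the second scaffold (GRCm38 chromosome 4, 137993022 to 138208508, plus strand), had 3432 normalised reads in EtOH and 4734 in OHT. It rose by 0.46 ± 0.14 (adjusted p = 0.0020) on the log2 scale in the authors' deposited table, to 138% of the EtOH level, and was the only one of the 45 genes that rose. Its 95% interval of 0.20 to 0.73 lies above that of Eif4g1 (-0.65 to 0.11). Per kb of transcript, Eif4g1 stood 4.48 times above Eif4g3 in EtOH and 2.69 times above it in OHT. When the authors' fold and SE were tested against a change of 0.5 log2 units instead of 0, 22 of the 45 genes were lower, beside 6.67% of all tested genes. Of all tested genes 10.4% were higher in that test, which Eif4g3 could not pass because its fold is below 0.5.

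The 3 genes among the 46 for eIF4 factors outside the complex fell. Eif4b, the cofactor that stimulates the helicase, had 15602 normalised reads in EtOH and 6988 in OHT, a log2 fold change of -1.16 ± 0.13 (adjusted p = 1.3e-18) per the authors' deposited table. The related cofactor gene Eif4h had -0.56 ± 0.097 (adjusted p = 6.5e-08) there. Eif4g2 encodes a shortened scaffold, also called DAP5, that lacks the eIF4E site. It had the most reads of the eIF4 genes, 33775 in EtOH and 24073 in OHT, and fell by 0.49 ± 0.099 (adjusted p = 4.1e-06) per the authors' deposited table.

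The elongation factor genes among the 46 fell. All 5 genes listed under eEF1 fell, with a median log2 fold change of -1.28 per the authors' deposited table, beside -0.82 for the 34 tested initiation genes. The 5 include Eef1e1, which is not itself an elongation factor. Without Eef1e1 the eEF1 median was -1.19. Eef1a1 (GRCm38 chromosome 9, 78478449 to 78489151, minus strand) carries aminoacyl-tRNAs to the ribosome and was the most abundant of all the factors, with 177111 normalised reads in EtOH and 82506 in OHT. Its log2 fold change was -1.10 ± 0.16 (adjusted p = 2.5e-11) per the authors' deposited table, and its share of all normalised reads was 0.894% in EtOH and 0.396% in OHT. The genes of its exchange factor fell with it: Eef1b2 by 1.38 ± 0.20, Eef1g by 1.28 ± 0.17 and Eef1d by 1.07 ± 0.13 on the log2 scale in the authors' deposited table. Eef1e1 (chromosome 13, 38644207 to 38659058, minus strand) encodes an auxiliary protein of the tRNA synthetase complex. It had 1366 normalised reads in EtOH and 432 in OHT, and its log2 fold change of -1.66 ± 0.21 (adjusted p = 8.5e-14) per the authors' deposited table was the lowest of the 45.

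Eef2, the gene of the translocase, had 77349 normalised reads in EtOH and 36900 in OHT. It fell by 1.07 ± 0.12 (adjusted p = 1.5e-18) on the log2 scale in the authors' deposited table. Eif5a encodes the hypusine-carrying factor that helps ribosomes over poor peptide bond substrates such as proline runs. It had 35859 normalised reads in EtOH and 20678 in OHT and a log2 fold change of -0.79 ± 0.13 (adjusted p = 5.5e-09) per the authors' deposited table.

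Both release factor genes fell. Gspt1, which encodes the GTPase eRF3, had -0.81 ± 0.16 (adjusted p = 2.9e-06) per the authors' deposited table. Etf1, the gene of eRF1, which reads the stop codon, had -0.58 ± 0.16 (adjusted p = 6.7e-04) there. The poly(A)-binding genes fell to different extents. Pabpc1, which links the poly(A) tail to eIF4G, had 49466 normalised reads in EtOH and 25491 in OHT, a log2 fold change of -0.96 ± 0.10 (adjusted p = 1.3e-18) per the authors' deposited table. Pabpc4 (chromosome 4, 123262351 to 123298925, plus strand) had 3728 normalised reads in EtOH and 1251 in OHT, a log2 fold change of -1.58 ± 0.11 (adjusted p = 5.9e-46) per the authors' deposited table. Their 95% intervals, -1.16 to -0.75 for Pabpc1 and -1.79 to -1.36 for Pabpc4, do not overlap; the difference itself was not tested.

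Levels were compared between genes per kb of 1 annotated transcript each. In EtOH, Eef1a1 stood at 98724 normalised reads per kb, followed by Eef2 at 25040, Eif5a at 24954, Pabpc1 at 17560, Eef1b2 at 13045 and Eif4a1 at 12512. The same 6 genes were the highest in OHT, at 45990 for Eef1a1, 11946 for Eef2, 14390 for Eif5a, 9049 for Pabpc1, 5028 for Eef1b2 and 6997 for Eif4a1. Eif2s3x was the lowest in EtOH, at 307 normalised reads per kb, and Eef1e1 the lowest in OHT, at 169. In the order of log2 fold changes, 43 of 44 neighbouring pairs had overlapping 95% intervals; the exception was Eif4g3 above Eif5. The order within the falls is therefore not resolved between neighbours.

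**Figure D2:**
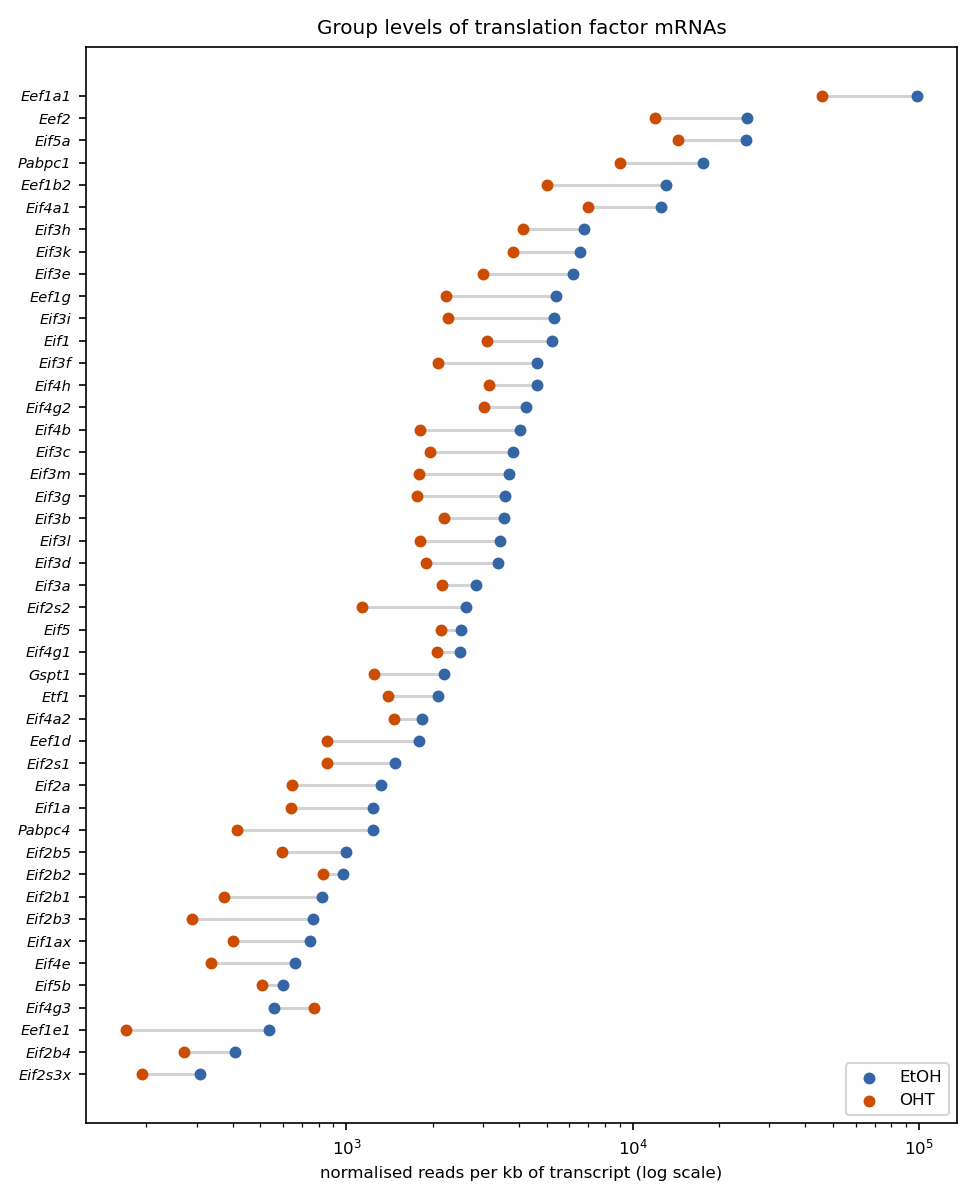
Group levels of the 45 tested genes in normalised reads per kb of transcript (log scale), computed from the deposited base mean and fold, with EtOH in blue and OHT in orange, ordered by the EtOH level. Eef1a1 leads both groups (98724 and 45990), and Eif4g3 is the only gene whose OHT point lies to the right of its EtOH point.

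Copies elsewhere in the genome limit some of these values. Of the 46 genes, 13 have at least 1 annotated pseudogene that matches their coding sequence at 95% identity or more over at least 80% of its length, among them Eif1 with 12, Eef1a1 with 7, Pabpc4 with 5 and Eif4a1 with 3. The sources used here do not give how reads were shared with these, or whether counting used strand. All 13 fell, with a median log2 fold change of -0.98 per the authors' deposited table, beside -0.87 for the tested genes with no such pseudogene. Eif1a, which has a family of predicted coding genes at 90% identity or more, and Eif1, with 1 such coding transcript, are uncertain for the same reason.

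Paralogs and partners outside the 46 genes were followed in 7 further lists of 78 genes, of which 68 were tested. Of these 68, 42 fell, 3 rose and 23 did not pass in the authors' deposited table, with a median log2 fold change of -0.54. That is 61.8% lower and 4.41% higher, beside 23.4% lower and 25.5% higher of all tested genes.

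Among 15 tested initiation paralogs and helpers, 9 fell and 6 did not pass. Bzw2, which encodes a mimic of eIF5, had the lowest log2 fold change, at -1.84 ± 0.14 (adjusted p = 1.5e-36) per the authors' deposited table, while its paralog Bzw1 had -0.16 ± 0.15 (adjusted p = 0.392) there. Eif1ad (-0.97 ± 0.13) and the reinitiation factor gene Denr (-0.87 ± 0.18) also fell in the authors' deposited table. Ddx3x, a helicase gene and the most abundant of the list, had -0.041 ± 0.12 (adjusted p = 0.812) there. Other eIF4E family genes had higher fold values than Eif4e: Eif4e2 had -0.11 ± 0.13 (adjusted p = 0.523) and Eif4e3 rose by 0.39 ± 0.13 (adjusted p = 0.0091) per the authors' deposited table. Neither interval overlaps that of Eif4e, and the differences were not tested.

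Of 10 repressors of cap-dependent initiation and PABP partners, 4 fell (40.0%), 1 rose and 5 did not pass. Of all tested genes 23.4% were lower, and 31.7% of those whose base mean was 1000 or more. The eIF4E inhibitor gene Eif4ebp1 had a log2 fold change of -1.16 ± 0.22 (adjusted p = 9.2e-07) per the authors' deposited table, the eIF4A inhibitor gene Pdcd4 -0.91 ± 0.18 and Larp1, which binds 5′ pyrimidine-rich mRNAs, -0.55 ± 0.16. Eif4ebp2 stood at 0.22 ± 0.21 (adjusted p = 0.424) per the authors' deposited table. The 1 that rose was Eif4e3. Of 6 eIF2 kinases and phosphatase subunits, 1 rose (16.7%, beside 25.5% of all tested genes) and 5 did not pass. That 1 was Eif2ak3, the gene of the endoplasmic reticulum kinase PERK, at 0.55 ± 0.14 (adjusted p = 3.3e-04) per the authors' deposited table. Ppp1r15b, the most abundant of them, had 0.23 ± 0.11 (adjusted p = 0.0845) there.

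Enzymes that modify the elongation factors fell with them. All 9 genes for hypusine on eIF5A and diphthamide on eEF2 fell, beside 23.4% of all tested genes. Their median log2 fold change was -0.82 per the authors' deposited table. Dph5 (-1.12 ± 0.22), Dph2 (-0.92 ± 0.19) and Dph7 (-0.90 ± 0.18) act in diphthamide synthesis, and Dohh (-0.82 ± 0.13), the most abundant, completes hypusine, all values from the authors' deposited table. Of 11 tested elongation paralogs and eEF enzymes, 6 fell (54.5%) and 5 did not pass. The methyltransferase genes Mettl13 (-1.19 ± 0.19), which acts on eEF1A, and Eef2kmt (-1.09 ± 0.17), which acts on eEF2, fell in the authors' deposited table, as did the selenocysteine factor gene Eefsec (-0.83 ± 0.18) and Eef2k (-0.59 ± 0.12), the kinase that inhibits eEF2. Eef1a2, the tissue-restricted paralog of Eef1a1, had a base mean of only 12.5, with a log2 fold of 0.39 ± 0.56 (adjusted p = 0.592) per the authors' deposited table.

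Of 6 tested termination and PABP paralogs, 5 fell (83.3%, beside 23.4% of all tested genes) and 1 rose (16.7%, beside 25.5%). The nuclear poly(A)-binding gene Pabpn1 had a log2 fold change of -0.79 ± 0.15 (adjusted p = 3.9e-07) per the authors' deposited table. Trmt112 (-0.71 ± 0.16) and N6amt1 (-0.69 ± 0.21), whose products together methylate eRF1, fell there too. Pabpc1l, with a base mean of 74.8, rose by 1.10 ± 0.29 (adjusted p = 5.7e-04) per the authors' deposited table. Of 11 tested mitochondrial translation factors, 9 fell (81.8%, beside 23.4% of all tested genes) and 2 did not pass. Their median log2 fold change was -0.79. Tsfm (-1.08 ± 0.19), an exchange factor, Mtrf1 (-1.08 ± 0.25), of the release factor family, and Mrrf (-1.01 ± 0.18), for ribosome recycling, fell in the authors' deposited table, and Gfm1, the most abundant, had -0.50 ± 0.19 (adjusted p = 0.0235). For comparison, all 78 cytosolic ribosomal protein genes fell, with a median of -1.19 in the authors' deposited table; its difference from the -0.89 of the translation factors was not tested.

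**Figure D3:**
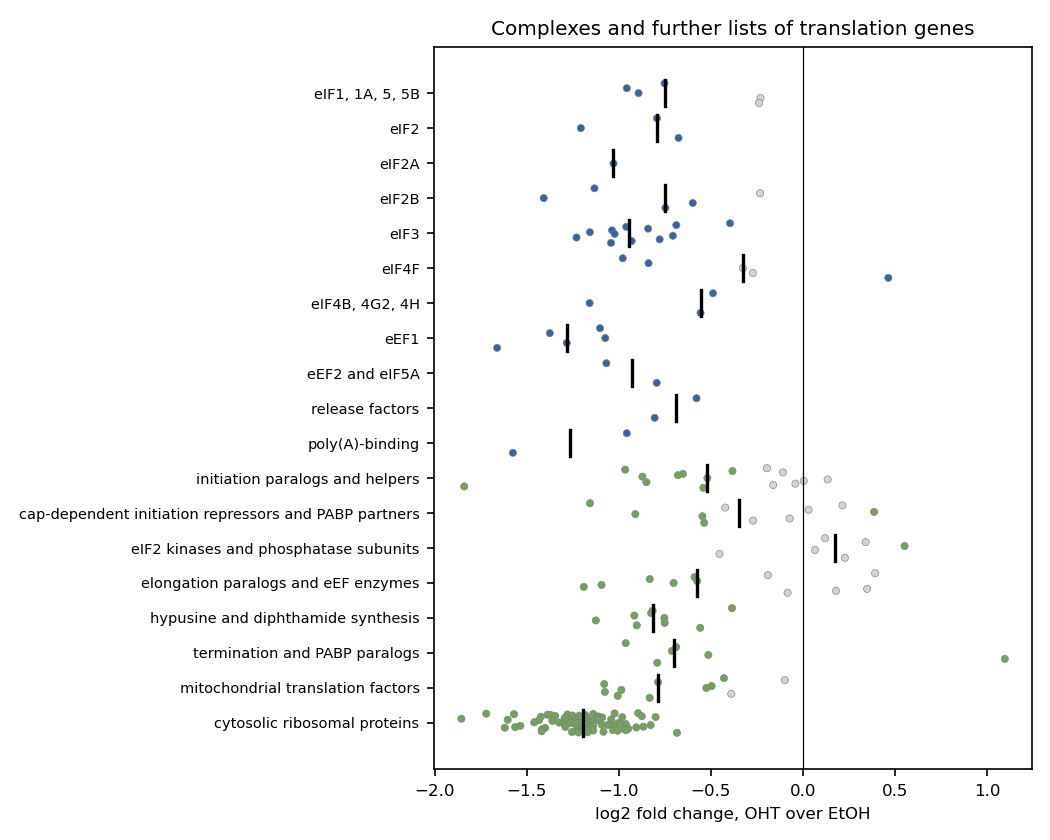
Log2 fold change (OHT over EtOH) of each tested gene by complex (blue), by further list and for cytosolic ribosomal proteins (green); grey points did not pass the adjusted p of 0.05 and black bars are medians. Medians run from -1.28 for eEF1 (Eef1e1 included) to -0.33 for eIF4F among the factors with 5 genes or more, and the eIF2 kinase list has a median of 0.17.

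The median fall was smaller among the factors with the longest coding sequences. The 9 tested translation factors with a coding sequence of 2000 nt or more had a median log2 fold change of -0.49, with 6 lower and 1 higher in the authors' deposited table. The 15 with less than 1000 nt had a median of -0.98, and all 15 fell. Across the 45 genes, Pearson's r between log2 coding length and log2 fold change was 0.41 and Spearman's rho 0.28. Over 4692 genes whose base mean was 1000 or more, r was 0.23 and rho 0.26. Genes are not independent replicates, and all share the same libraries. The medians were ordered the same way among all genes whose base mean was 1000 or more: the median was 0.21 for 1503 genes of 2000 nt or more and -0.26 for 1508 genes below 1000 nt, with 18.7% and 44.5% lower. Base mean showed little relation to the fold among the factors (rho 0.095), as did the GC content of the transcript (rho 0.042).

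**Figure D4:**
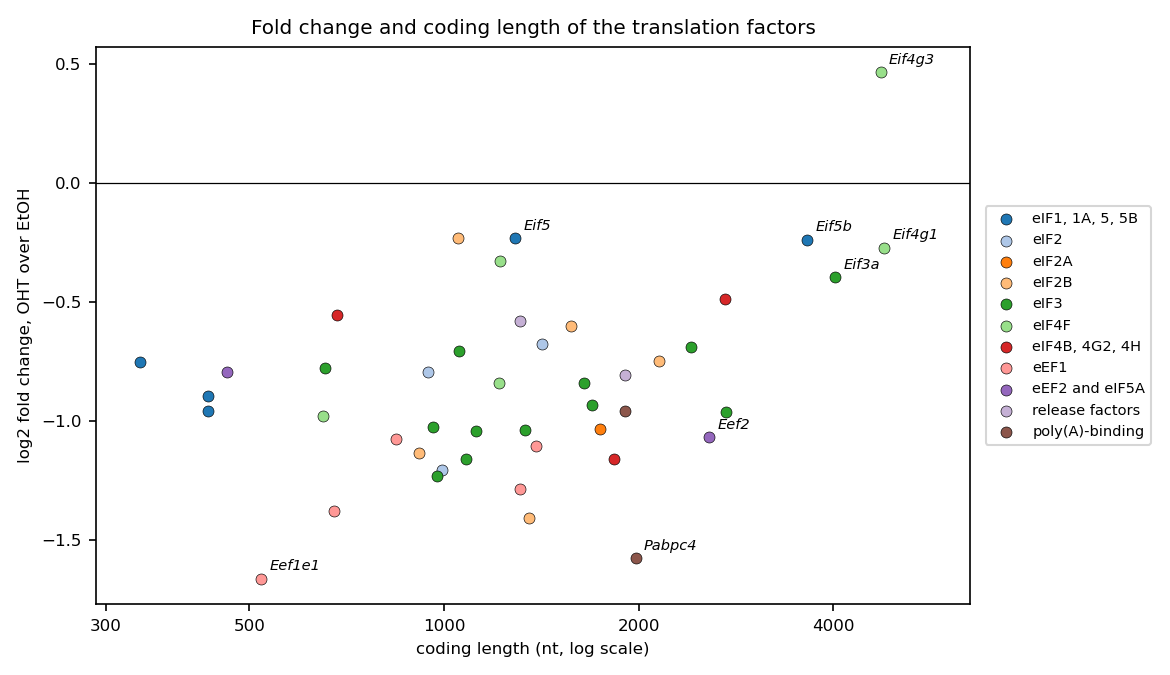
Log2 fold change (OHT over EtOH) against coding length in nt (log axis) for the 45 tested genes, coloured by complex. Eif4g3, Eif4g1, Eif5b and Eif3a, with coding sequences from 3648 to 4800 nt, lie at -0.40 or above, and Eef1e1, with 522 nt, is the lowest at -1.66.

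Because the factors fell together, their promoters were searched for 2 short patterns, in the RefSeq windows of 250 bases before to 50 after each annotated start (GRCm38.p6). Windows were found for 35 of the 45 tested genes. None was found for Eif1a, Eif2b3, Eif3e, Eif3h, Eif3i, Eif4g2, Eef1d, Eef1g, Etf1 and Pabpc1, which were therefore not searched. The first pattern was CACGTG, the hexamer bound by MYC with MAX and by other factors of that family, which reads the same on both strands. It was present in 9 of 35 genes (25.7%), in 11.5% of the 10376 tested genes with a window and in 7.15% of all 32851 windows. Of the 9 genes 8 fell, at a median log2 fold of -0.79, and of the 26 without it 21 fell, at a median of -0.87, a difference that was not tested. The 5 windows below show the hexamer in capitals in genes that fell and, last, in Eif4g1, which did not pass.
Eif3f, chr7:108934335-108934364, plus strand: caagatatgattCACGTGgtataaatttag
Eif3k, chr7:28981915-28981944, minus strand: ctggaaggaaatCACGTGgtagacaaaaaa
Eif4e, chr3:138527192-138527221, plus strand: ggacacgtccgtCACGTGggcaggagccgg
Eef2, chr10:81176576-81176605, plus strand: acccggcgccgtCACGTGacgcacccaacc
Eif4g1, chr16:20672661-20672690, plus strand: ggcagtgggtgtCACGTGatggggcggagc

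In these windows the hexamer begins 68 bases before the annotated start in Eif3f, 44 in Eif3k, 64 in Eif4e, 43 in Eef2 and 54 in Eif4g1. These are not all the sites. The others range from 228 bases before a start, at a second site in Eif4e, to 22 after it, in Eif3a. The second pattern was a C at the annotated start followed by at least 4 more pyrimidines, the form of the 5′ terminal oligopyrimidine tract through which mTORC1 and LARP1 control many translation factor mRNAs. It was present in 2 of 35 genes (5.71%), Eif3f and Eif2s3x, and in 3.04% of tested genes with a window. With the C allowed within 5 bases of the annotated start, it was present in 8 of 35 genes (22.9%) and in 23.8% of tested genes with a window. Of those 8 genes 6 fell, and of the other 27, 23 fell. The run of each of the 2 genes is shown in capitals, after 10 bases before the start.
Eif3f, chr7:108934405-108934434, plus strand: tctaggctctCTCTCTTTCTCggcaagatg
Eif2s3x, chrX:94212632-94212661, minus strand: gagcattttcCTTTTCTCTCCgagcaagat
Both runs are 11 bases long, and both genes fell, Eif3f by 1.16 ± 0.18 and Eif2s3x by 0.68 ± 0.17 on the log2 scale in the authors' deposited table. Of the 33 genes without such a run at the annotated start, 27 fell (81.8%). Their median log2 fold change was -0.84, beside -0.92 for the 2 genes, a difference that was not tested. The annotated start need not be the one used in these cells, and the other 33 genes only lack these letters at that position. For Pabpc4 the bases around the annotated start (chr4:123282901-123282930) lie inside the gene span given above, which begins at 123262351. The same holds for other genes, among them Eef1a1 and Eif4g1. For Eef1a1 the bases are chr9:78481705-78481734, and its minus-strand span ends at 78489151. For Eif4g1 they are chr16:20672717-20672746, and its plus-strand span begins at 20668313. The genes without a window were not searched, so the counts do not describe them.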

How the data were processed

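RNA from 12 samples was sequenced, and 1 table of the authors' comparison of 6 of them was used. The authors trimmed, aligned and counted reads against mm10 with Trimmomatic (0.38.0), STAR (2.7.2b) and HTSeq (0.9.1), then used DESeq and DESeq2; these names come from the submitters' processing notes, which give no order. The annotation and counting options were not stated. The authors deposited a base mean, a signal in size-factor normalised reads averaged over the libraries, for 24221 genes. The authors also deposited a log2 fold change with its SE, a Wald score, and p-values with Benjamini-Hochberg adjustment. The deposited score equals fold over SE within 7.6e-08, and the deposited adjusted p-values were recomputed over 13814 genes within 2.3e-07. The largest SE is 0.747 and base means sum to 20307732 normalised reads; depth per sample is unknown. As low genes have small SEs, the authors' folds may be pulled towards 0.

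Intervals are fold ± the 95% normal limit of the SE. Group levels assume the fold is the ratio of the 2 group means. The adjusted p is that of the authors' Wald test, and replicates may be technical, since the labels name no separate cultures. Transcripts and positions came from GENCODE M21, 1 complete transcript a gene (CCDS, then APPRIS principal, then the longest). Copies were sought with blastn 2.17.0. Python 3.11.15, scipy 1.17.1 and pandas 2.3.3 were used, and the Wald and adjustment code was tested on simulated data. Older symbols matched 5 listed genes, and 3 (Eef1akmt3, Eef1akmt4 and Mtrfr) were not matched. The members and lists were chosen with earlier results of these data known. Each complex is given by its highest, lowest and most abundant gene and all genes not called; each further list by its 3 largest called changes at a base mean of at least 100, the most abundant, and called genes against its median.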

Additional observations from a re-analysis of the deposited data

How the results depend on the processing

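The count of 39 lower translation factors was 38 at an adjusted p of 0.01, 40 at 0.1 and when folds were centred on the median of all tested genes, 39 with adjustment over all genes with a p-value or over those whose base mean was 100 or more, and 37 without genes with a coding paralog of 90% identity or more. Against a null change of 0.5 log2 units, 22 were lower (6.67% of all tested genes were) by the Wald test, and 0 higher, which follows from the fold of Eif4g3 being below 0.5; 18 single genes lost their call there. Centring moved 1 gene, Eif4a2, past the threshold and reversed none. The median of the eIF1, eIF1A, eIF5 and eIF5B genes was -0.75 and their weighted mean -0.56; the eIF2 median was -0.79, and -1.0 for its genes whose base mean was 1000 or more. The 1 rise among termination and PABP paralogs, Pabpc1l, lies below a base mean of 100, so the count was 0 with that minimum. The identity limit was applied to coding nucleotides, not to proteins. No paired analysis was possible because the table holds no values per sample, and leaving out each replicate was not run for the same reason. What depth limits in single libraries is unknown.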

Other observations

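For 2 factors with an X-linked and a Y-linked gene, the Y-linked gene had few or no reads: Eif2s3y had a base mean of 0.089 and Ddx3y was listed at 0 in the authors' deposited table, beside 911 for Eif2s3x and 13535 for Ddx3x.

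After the promoter windows had been seen, the hexamer was extended to TCACGTGGT on either strand. This longer word was present in at least 1 window of 4 of the 35 translation factor genes (11.4%): Eif3a, Eif3f, Eif3k and Eif4e. It was present in 67 of 10376 tested genes with a window (0.646%). Counted by window and not by gene, it was present in 108 of all 32851 windows (0.329%). All 4 genes fell in OHT, as did most of the 35: 21 of the 26 genes without the hexamer also fell (80.8%). The word was chosen from these sequences, so the shares describe these windows only, and no binding was measured.

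The share of single subunits in the summed level per kb of a complex was computed for eIF2, eIF2B, eIF3, eIF4F and eEF1. Eef1e1 was counted under eEF1, where it made up 0.448% in EtOH and 0.312% in OHT. In eIF2, Eif2s2 made up 59.5% in EtOH and 52.1% in OHT, and Eif2s1 33.6% and 39.1%. Eif2b2 made up 24.6% of the summed eIF2B level per kb in EtOH and 35.2% in OHT, and Eif2b3 19.3% and 12.2%. Eif4g3 made up 3.09% of the summed eIF4F level in EtOH and 6.62% in OHT, and Eif4a1 69.2% and 60.1%. In eEF1, Eef1a1 made up 82.6% and 84.8%, and in eIF3 the shares lay between 5.26% and 12.6% in EtOH and between 6.10% and 14.4% in OHT. These are mRNA shares computed from the deposited base means and folds, with no value per sample and no test.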
